A study of Mus musculus with 2 samples.

Results

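The integrins and laminins of the mouse mammary gland were followed over 1 day of involution, in which a gland that has stopped nursing regresses. Members were all probe sets on the array whose single gene symbol in the platform annotation starts with Itga or Itgb, or with Lama, Lamb or Lamc and a digit. An alpha gene of the leukocyte integrins was not analysed here. This gave 83 of the 45037 probe sets that are not controls, for 38 of 18193 named genes. They comprised 24 integrin subunit genes (56 probe sets), 10 laminin chain genes (19 probe sets) and 4 genes that share the prefix but encode no subunit (8 probe sets).

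The day 0 group was RNA from mammary glands of 5 lactating CD1 mice, pooled, taken when the pups were removed by force at day 10 of lactation. The day 1 group was RNA of 5 CD1 mice pooled 1 day after that weaning. All were unmodified females, bought at 6 weeks of age, and nursed litters set to 6 pups. Each pool was read on 1 Affymetrix whole-genome mouse array, so the 2 groups had 1 array each. With 1 array a day, no test between days was possible and no difference below has a replicate check. Precision is limited by the number of arrays.

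Integrins are receptors made of an alpha and a beta subunit that link the matrix outside the cell to the actin or keratin skeleton inside. The beta subunit is shared by many alpha partners, and the pair decides which ligand is bound. Laminins are trimers of an alpha, a beta and a gamma chain, and form the core of the basement membrane on which mammary epithelium rests. Signals from laminin through beta1 integrins are known to be needed for milk protein expression in mammary epithelium, and the basement membrane is remodelled during involution.

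Values are MAS 5 signals, a brightness per probe set on a linear scale, and the ratio is log2 of the day 1 over the day 0 signal. Signals under 77.7, the median over both arrays with controls left out, were set to that value (the floor) before the ratio was taken. A probe set was measured when its brighter array lay above that floor, and where 1 day lay at the floor the ratio is a bound ("at least"). The probe set that is brightest on average stands for its gene, and the others are given beside it. By this rule 51 of the 83 member probe sets were measured, 38 of them above the floor on both days. Signals of different genes are not compared with each other, since probe sets differ in brightness. The closest probe sets outside and inside the rule had a brighter signal of 72.9 (Itgb1) and 79.3 (Itga5).

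The arrays had the same trimmed mean signal, whereas the median was 94.2 on day 0 and 60.1 on day 1. Hybridisation controls, RNAs added in fixed amounts, had a median log2 ratio of -1.16 (15 probe sets, each under 50% of the top signal). They ranged from -2.14 to -0.50 log2, so a scaling by their median is itself uncertain in size. Holding them level between days, called hybridisation control scaling below, moved the median ratio of all genes from -0.12 to 0.97. The 3' to 5' signal ratio of beta-actin, a sign of RNA quality, was 2.5 on day 0 and 1.51 on day 1. That of Gapdh was 1.52 and 1.48, and that of pyruvate carboxylase 13.5 and 7.86. The part of RNA quality in the results was not tested. Between probe sets of 1 gene the SD of the log2 ratio, pooled, was 0.56 over 3943 genes and also 0.56 over 9 member genes. This SD describes differences between probe sets, not between mice. The defining markers of mammary luminal epithelium were above the floor on both days (the keratin gene Krt8 at 3178.5 and 23938.2, and Epcam at 7265.4 and 8857.3). In whole tissue, fewer cells of a type and less RNA per cell cannot be told apart.

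Promoter sequences are shown for 4 subunit genes whose ratios, given below, were at least 2-fold and to both sides of 0. Of the 34 subunit genes, 22 matched the promoter table, which is taken from RefSeq on GRCm38.p6. Itgb4, Itga6, Itgal, Itgb2, Lama1 and Lama4 were not matched. The runs hold the 250 bases before the start, 5' to 3' along the gene. Capitals mark matches on either strand to any of 4 motifs. The GC box, bound by Sp1, was searched as GGGCGG. The site of the AP-1 factors was searched as TGANTCA. The site of the Stat factors was searched as TTCNNNGAA. The TATA box was searched as TATAAA. Where 2 matches overlap, their capitals run together. The Itgb1 and Itgb8 runs belong to genes with a higher signal on day 1, and the Itga5 and Itga10 runs to genes with a lower one.
Itgb1 (chr8:128685404-128685653, plus strand): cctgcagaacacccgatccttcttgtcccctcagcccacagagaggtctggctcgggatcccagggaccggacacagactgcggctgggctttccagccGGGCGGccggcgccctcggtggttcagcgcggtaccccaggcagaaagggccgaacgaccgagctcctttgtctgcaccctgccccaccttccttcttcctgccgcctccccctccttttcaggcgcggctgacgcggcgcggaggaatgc
Itgb8 (chr12:119238277-119238526, minus strand): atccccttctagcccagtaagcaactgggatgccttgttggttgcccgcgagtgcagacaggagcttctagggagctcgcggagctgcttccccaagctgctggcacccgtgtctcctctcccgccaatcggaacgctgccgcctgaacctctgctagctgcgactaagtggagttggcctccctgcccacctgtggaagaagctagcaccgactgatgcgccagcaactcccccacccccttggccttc
Itga5 (chr15:103366792-103367041, minus strand): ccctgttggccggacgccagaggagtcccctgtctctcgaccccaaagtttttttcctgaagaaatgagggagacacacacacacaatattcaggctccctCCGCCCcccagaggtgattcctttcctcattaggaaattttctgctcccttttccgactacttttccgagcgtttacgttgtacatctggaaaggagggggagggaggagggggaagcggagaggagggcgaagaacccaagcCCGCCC
Itga10 (chr3:96645334-96645583, plus strand): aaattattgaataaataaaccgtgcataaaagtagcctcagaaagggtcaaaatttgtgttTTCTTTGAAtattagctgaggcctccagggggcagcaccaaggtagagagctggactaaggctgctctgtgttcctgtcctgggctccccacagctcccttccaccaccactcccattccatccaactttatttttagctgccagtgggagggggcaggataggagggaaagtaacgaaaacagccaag

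The Itgb1 run held a GC box whose first base lies 151 bases before the start. The Itga5 run held 2 GC boxes, at 149 and 6 bases before the start. Itga10 held a Stat match at 189 bases before the start, and the Itgb8 run held none of the 4 motifs. Among the 25 promoters of integrin and laminin subunit genes, 8 held a GC box, against 32.7% of all 32851 promoters of this length. AP-1 letters were in 1 of the 25 (Itgax), against 6.75% of all promoters. Stat letters were in 2 (Itga10 and Lamb2), against 7.02%, and TATA letters in 0, against 12.4%. These shares describe the letters in the windows and say nothing about binding.

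Of the 7 measured integrin beta genes 4 were at least 2-fold higher on day 1. Of 14 measured alpha genes 11 differed by under 2-fold, near the share of all measured genes (10101 of 13239). Of 21 measured integrin subunit genes, 5 were at least 2-fold higher on day 1 (Itgb8, Itgb4, Itgb1, Itgal and Itgb2) and 2 at least 2-fold lower (Itga5 and Itga10). Over all 13239 measured genes, 10.4% passed 2-fold upward and 13.3% downward. By probe set, 6 of 36 measured ones for integrins passed 2-fold upward and 4 downward, against 9.86% and 12.6% of all 22699 measured probe sets. The median log2 ratio of the 21 was 0.11, against -0.12 for all measured genes. It was -0.28 with the floor at the 25th percentile of signals. It was -0.085 without probe sets whose names carry the suffix a, s or x, called suffixed below. That setting left Itgb4, Itga7 and Itgb6 without a value. The direction of the integrin median was thus not settled. Of the beta genes 0 were at least 2-fold lower, and of the alpha genes 1 was higher and 2 lower. The 4 beta genes were also at least 2-fold higher under quantile normalization and loess normalization (all genes 11.6% and 12.4%). Median centring and hybridisation control scaling raise every day 1 signal by 1 factor, which cannot lower a ratio. That the 4 stayed higher there (all genes 28.5% and 48.7%) is therefore no check. With the floor at the 75th percentile, 2 of 5 measured beta genes were higher (all genes 10.9%). With the smallest ratio of each gene, 3 of 7 were (6.39%). Without suffixed probe sets 3 of 5 were higher and 1, Itgb5 at -1.13 log2, lower (9.56% and 13.6%). The count of alpha genes changed with the scaling: under hybridisation control scaling 7 of 14 passed 2-fold upward, 1 downward and 6 neither, where 48.7% of all genes passed upward and 2.28% downward. Because a gene near the floor is measured only through its brighter day, the 15 integrin genes above the floor on both days are given too. Of these 3 were at least 2-fold higher and 0 lower, where 11.6% and 11.1% of 9768 such genes were. The 3 were among 5 beta genes, while of 10 alpha genes 0 were higher and 0 lower.

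**Figure D1:**
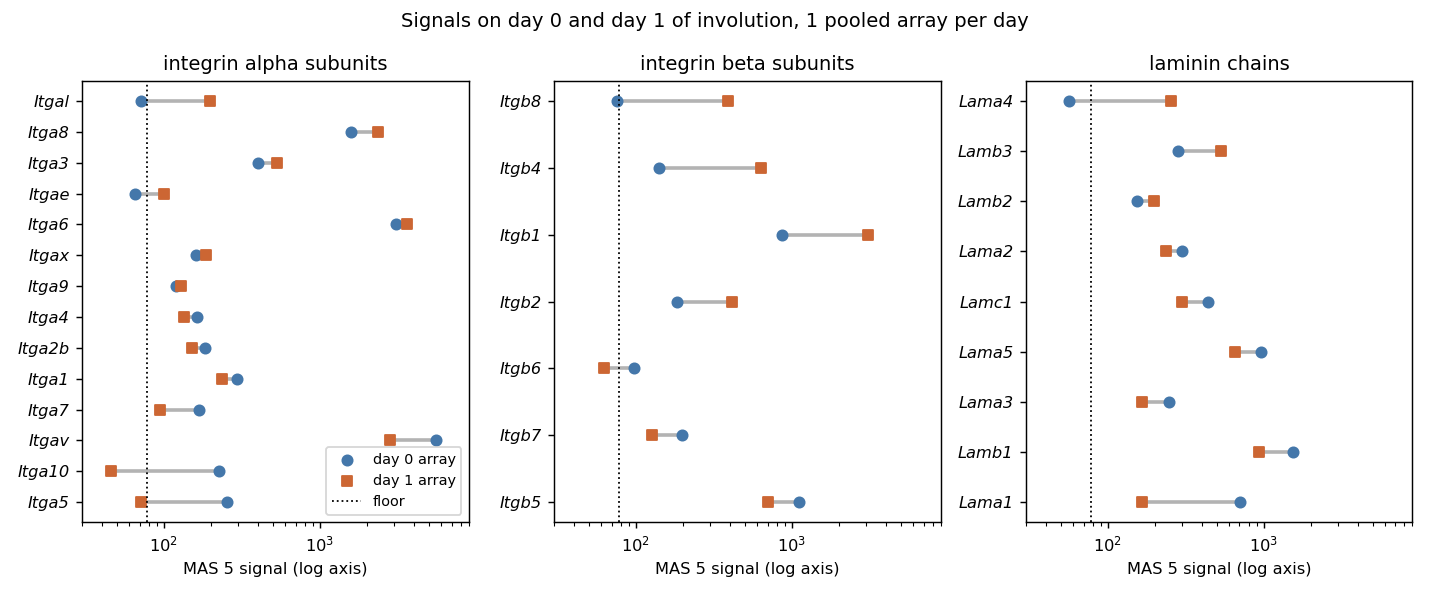
MAS 5 signals on a log axis of each measured integrin alpha, integrin beta and laminin gene, with a circle for the day 0 array and a square for the day 1 array, ordered by ratio. The dotted line is the floor of 77.7; Itgb8, Itgb4, Itgb1 and Itgb2 have their squares to the right of their circles, and Itga5, Itga10 and Lama1 to the left.

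Itgb1 encodes the beta1 subunit, the partner of most alpha chains and the main laminin and collagen receptor chain of epithelium. Its brightest probe set had a signal of 866.5 on day 0 and 3080.5 on day 1, which is 3.56-fold higher. A separate bright probe set had 671.7 and 2199.1, a log2 ratio of 1.71, so both bright ones were higher on day 1. A dim probe set had 98.2 and 116.1 (0.24 log2), and the remaining 3 of its 6 were below the floor on both days, with lower signals on day 1 (for example 66.7 and 3.5). The measured probe sets of Itgb1 shared a direction but not a size, and with the smallest of them the 2-fold difference ends.

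Itgb4 encodes the beta4 subunit, which pairs only with alpha6 and anchors keratin filaments at hemidesmosomes. Its single probe set had 141.6 on day 0 and 639.5 on day 1, 4.52-fold higher. Under the 9 alternative settings that gave it a value, this ratio lay between 1.36 and 3.34 log2. Itga6, its partner, was bright on both days, with 3066.3 and 3627.7 (0.24 log2) at the brightest probe set and 1719.1 and 3312.9 (0.95 log2) at the other. Both Itga6 probe sets were higher on day 1 and under 2-fold. The α6β4 receptor thus had a 4.52-fold difference in the beta chain and 1.18-fold in the alpha chain.

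Itgb8 encodes the beta8 subunit, which with alphaV activates latent Tgfb1. Its signal was 76.2 on day 0, just under the floor, and 391.8 on day 1, so it was at least 5.04-fold higher. As deposited this was the highest ratio among the measured members, while Itgb4 had the higher one under median centring, quantile normalization, hybridisation control scaling and a higher floor. The Itgb8 ratio was under 2-fold (0.65 log2) with the floor at the 75th percentile of signals.

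Ratios within the alphaV family differed in direction. Itgav, the alpha chain shared by Itgb1, Itgb3, Itgb5, Itgb6 and Itgb8, had 5555.8 on day 0 and 2801.3 on day 1. That is 1.98-fold lower, just short of the 2-fold threshold, and its other 2 measured probe sets had log2 ratios of -0.54 and -1.31 (a bound). Itgb5, the beta5 chain of a vitronectin receptor, had 1120.1 and 701.1 (-0.68 log2). All 4 Itgb5 probe sets were lower on day 1, from -1.13 to -0.55. Itgb6, an epithelial chain that also activates Tgfb1, had 98.0 and 62.8, a bound of -0.33, and Itgb3, the vitronectin receptor chain also found on platelets, was not measured (14.9 and 2.5). Under hybridisation control scaling Itgav, Itgb5 and Itgb6 were at 0.17, 0.49 and 0.35 log2, so their direction depends on the scaling.

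Among the other laminin receptor chains, Itga3, whose pair with beta1 binds the laminins of epithelium, had 399.9 and 533.5 (0.42 log2). A dimmer Itga3 probe set had 148.2 and 123.9 (-0.26), so its direction was not settled. Itga7, the laminin receptor chain of muscle, had 168.9 and 94.7 (-0.83, but 0.33 under hybridisation control scaling). Skeletal muscle markers were present on both days, with a summed signal of 16694.9 and 19384.8 over 8 of 8 measured markers. Of these markers 1 was at least 2-fold higher and 0 lower (all measured genes 10.4% and 13.3%). Their part in the Itga7 ratio was not tested.

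Among collagen and fibronectin receptor chains, Itga5 and Itga10 were at least 2-fold lower on day 1. Itga5, the alpha chain of the main fibronectin receptor, had 254.9 and 71.1, at least 3.28-fold lower. Its other measured probe sets were also lower, with 114.0 and 3.7 and with 79.3 and 40.0. Their day 0 signals lay near the floor, so the bounds they give (-0.55 and -0.029) do not show the size. Itga10, a collagen receptor chain known from cartilage, had 226.4 and 45.8 at its single probe set, at least 2.91-fold lower. Itga1, another collagen receptor chain, had 296.1 and 234.5 (-0.34), and a dim probe set had 11.5 and 85.9 (a bound of 0.14), so its direction was not settled. Itga2, the remaining collagen receptor chain with a named probe set here, was not measured (57.5 and 36.4). Itga5 and Itga10 were below 0 in every alternative that gave a value, with ratios from -1.84 to -0.028 for Itga5 and from -2.31 to -1.04 for Itga10.

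Itga8, the alpha chain of the nephronectin receptor, was bright and had 1593.9 and 2370.9 (0.57 log2). Its second probe set had 264.4 and 379.5 (0.52), so both were higher by a like amount under 2-fold. Npnt, which encodes that ligand, had 222.2 on day 0 and 74.0 on day 1, at least 2.86-fold lower. Itga9, a tenascin receptor chain, had 119.4 and 129.3 (0.11 log2). Under hybridisation control scaling the chains Itga3, Itga6, Itga8 and Itga9 were at 1.58, 1.41, 1.74 and 1.28 log2, so that their place under 2-fold depends on the scaling.

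Of the leukocyte integrin chains Itgb2 and Itgal were at least 2-fold higher on day 1. Itgb2, the beta2 chain of leukocytes, had 185.1 and 416.3, 2.25-fold higher. Itgal, whose pair with beta2 binds Icam1, had 71.8 and 197.1, at least 2.54-fold higher, and its other probe set was below the floor on both days (15.5 and 10.7). Itgax, another beta2 partner found on dendritic cells and macrophages, had 161.8 and 186.6 (0.21, but 1.37 under hybridisation control scaling). As deposited, Itgal with Itgb2 was the 1 listed pair in which both chains were at least 2-fold higher, with Itgal measured only through its day 1 signal. Such pairs numbered 3 after median centring and 7 under hybridisation control scaling. The ligand gene Icam1 had 117.2 and 304.1, 2.59-fold higher.

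The beta7 branch was under 2-fold as deposited. Itgb7, the chain of gut-homing and intraepithelial lymphocytes, had 199.0 and 127.6 (-0.64, but 0.52 under hybridisation control scaling). Itga4, which pairs with beta7 and with beta1 and binds Vcam1, had 162.7 and 133.6 (-0.28) and a dimmer probe set with 83.9 and 100.1 (0.25). Itgae, the E-cadherin receptor chain of intraepithelial lymphocytes, had 64.9 and 100.3 at the probe set that stands for it (a bound of 0.37) and 99.9 and 10.6 at the other (a bound of -0.36). Under hybridisation control scaling Itga4 and Itgae were at 0.88 and 1.02 log2. Leukocyte markers had a summed signal of 5956.4 on day 0 and 10234.1 on day 1, with 11 of 15 measured above 0 log2 and 4 below. Of the 15, 9 were at least 2-fold higher and 1 lower (all measured genes 10.4% and 13.3%). Some of these were measured only through their day 1 signal. Of the 11 above the floor on both days, 6 were at least 2-fold higher and 1 lower (all such genes 11.6% and 11.1%). None of the 15 was listed at 0. Ptprc, the common leukocyte antigen, had 411.5 and 871.1, with a second probe set level between days. The T cell receptor chains among the markers differed in direction. Cd3e had 273.1 and 116.1, and Cd3d had 5.0 and 206.2, at least 2.65-fold higher. The part of leukocyte number in these ratios was not tested.

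Itga2b, the platelet fibrinogen receptor chain, had 184.6 and 150.8 (-0.29, but 0.87 under hybridisation control scaling). Its beta partner Itgb3 was not measured, nor were the platelet markers Ppbp and Gp9. Of 6 platelet markers 4 were measured, with a summed signal of 682.4 and 722.5. Of the 4, 0 were 2-fold different (all measured genes 10.4% higher and 13.3% lower).

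Set by known pairs, the 2 chains of a receptor mostly had ratios 2-fold or more apart as deposited. With the smallest ratio of each gene most pairs did not. How often 2 measured genes of any kind lie that far apart was not determined, so the count is not specific to receptors. Of 23 listed alpha-beta pairs, 18 had both chains measured. In 13 of the 18 the ratios of the chains differed by at least 1 log2, including all 10 pairs that hold Itgb1. These pairs share the Itgb1 value and are not independent. Itgb1 was at 1.83 log2 and the highest of its measured alpha partners, Itga8, at 0.57, so this 1 value sets all 10. With the mean of the probe sets of each gene, 10 of 18 pairs and 8 of the 10 with Itgb1 differed by that much, and with the smallest ratio of each gene 4 and 2. In 2 pairs, of Itgb1 with Itga5 and with Itga10, the beta gene was at least 2-fold higher and the alpha gene at least 2-fold lower. In 0 pairs were both at least 2-fold lower. The differences between chains were 3.54 log2 for α5β1, 3.32 for αVβ8, 1.93 for α6β4, 1.59 for α6β1 and 1.41 for α3β1, and some of these rest on bounds. Among pairs without a 2-fold difference between chains, αVβ5 and α4β7 differed by 0.31 and 0.36.

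**Figure D2:**
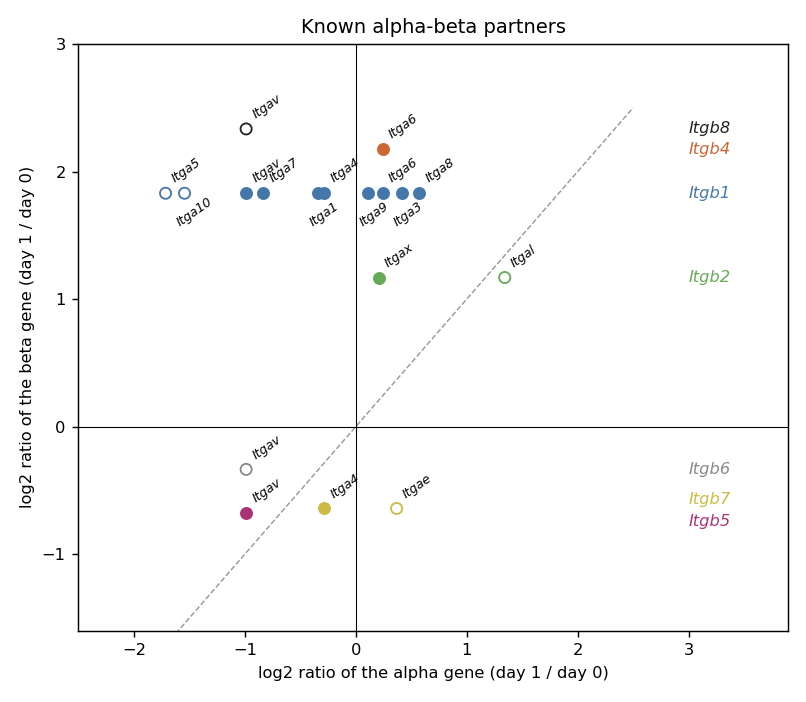
The log2 ratio of day 1 over day 0 of the alpha gene (horizontal) against that of the beta gene (vertical) for the 18 known pairs with both chains measured. Each point carries the alpha gene and is coloured by the beta gene named at the right, open points hold a bound, and the dashed line marks equal ratios; the 10 Itgb1 pairs lie above it in 1 row.

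Among the laminin chains Lama1 was 4.28-fold lower on day 1. Of 9 measured chains 7 differed by under 2-fold, near the share of all measured genes (10101 of 13239). Of the 9 measured laminin genes, 1 was at least 2-fold higher (Lama4) and 1 at least 2-fold lower (Lama1), against the 10.4% and 13.3% of all measured genes. Lama4 was measured only through its day 1 signal. Of the 8 laminin genes above the floor on both days 0 were at least 2-fold higher and 1 lower, against 11.6% and 11.1% of all such genes. By probe set, 1 of 13 passed 2-fold upward and 3 downward, against 9.86% and 12.6% of all measured probe sets. Of those 3, 2 were of Lamb1 and the other of Lama1. The median log2 ratio of the 9 genes was -0.54, against -0.12 for all measured genes. That median was 0.11 after median centring and 0.62 under hybridisation control scaling, so its direction depends on the scaling. Lamc3 was not measured (its brighter signal was 32.4).

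Lama1, the alpha chain of the laminin first purified from tumour matrix, had 708.5 on day 0 and 165.5 on day 1 at its single probe set. It was at least 2-fold lower in 9 of 10 alternatives and at -0.94 log2 in the remaining one, hybridisation control scaling. Lama5, the main alpha chain of mature epithelial and vessel basement membranes, had 967.4 and 657.4 (-0.56). Its second probe set had 133.1 and 247.3 (0.89), the other direction, so Lama5 was not settled. Lama2, the chain of muscle and nerve basement membranes, had 298.7 and 235.3 (-0.34, but 0.82 under hybridisation control scaling).

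Lama4, the alpha chain of vessel walls, had probe sets that disagree. The probe set with the higher mean had 56.2 on day 0 and 254.9 on day 1, at least 3.28-fold higher. The other had 150.3 and 53.8, a bound of -0.95 log2. The higher value of Lama4 therefore rests on 1 of 2 probe sets. Endothelial markers beside it had a summed signal of 3141.3 and 3036.0. Of 10 measured, 1 was at least 2-fold higher and 2 lower (all measured genes 10.4% and 13.3%). Pecam1, an endothelial junction gene, had 211.1 and 210.4. Their part in the Lama4 values was not tested.

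The chains Lamb1 and Lamc1, shared by most laminin trimers, were lower on day 1 as deposited and at 0.44 and 0.62 log2 under hybridisation control scaling. Lamb1 had 1541.5 and 932.5 (-0.73) at the brightest probe set. Another had 764.4 and 225.4 (-1.76) and the remaining measured one 298.0 and 116.4 (-1.36), so all 3 measured probe sets of Lamb1 were lower and 2 of them at least 2-fold. Lamc1, the common gamma chain, had 436.8 and 300.1 (-0.54), with a dim probe set below the floor (33.3 and 51.5). Lamb2, which replaces Lamb1 in some vessels and at the neuromuscular junction, had 154.8 and 198.4 (0.36). Its ratio was 1.01 after median centring and 1.52 log2 under hybridisation control scaling.

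Lama3 and Lamb3, chains found in epithelial laminin, differed in direction as deposited. Lamb3 had 281.0 and 532.1, 1.89-fold higher and just short of 2-fold. Lama3 had 247.6 and 166.3 (-0.57) at the measured probe set. Lamb3 was above 0 in each of its 9 alternatives, from 0.88 to 2.08 log2, and Lama3 from -0.57 to 0.59. Myoepithelial markers, from the cells that lie on the basement membrane, had 0 of 10 at least 2-fold different in either direction, and a summed signal of 23471.7 and 26559.4. Krt5, a keratin of these cells, had 504.7 and 401.4, while 6 of the 10 markers were above 0 and 4 below, with a median of 0.22 log2. Luminal markers had a summed signal of 42209.1 and 92605.3. Of 10 measured, 7 were at least 2-fold higher and 1 lower (all measured genes 10.4% and 13.3%). The luminal markers thus differed in direction: Elf5, the lower one, had 23257.0 and 11038.6, and Ehf was at -0.65 log2. The part of either cell type in the ratios of Itgb4, Itgb1 and Lamb3 was not tested.

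**Figure D3:**
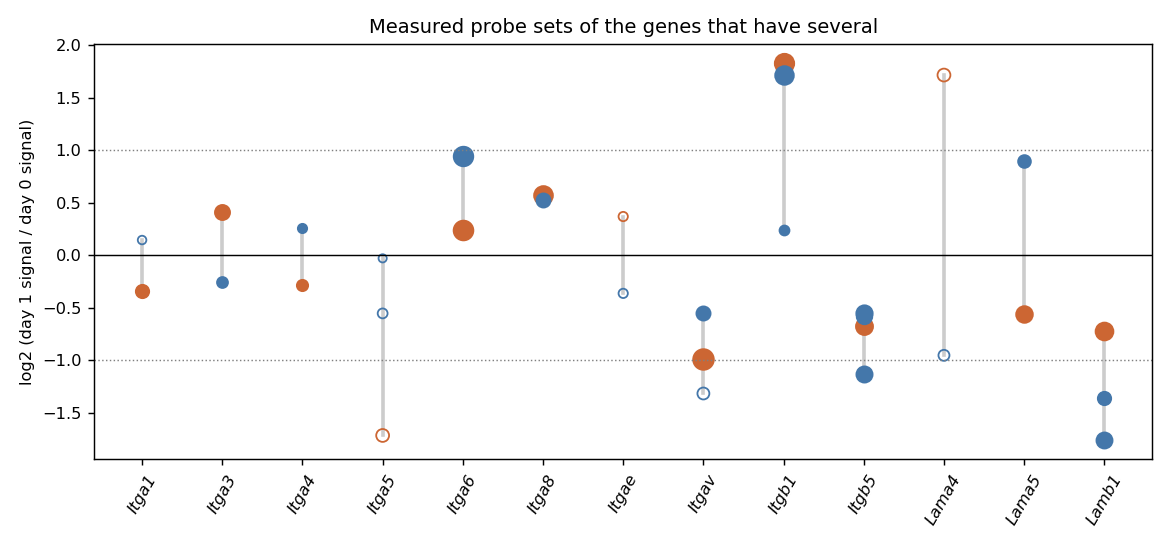
Log2 ratio of day 1 over day 0 for each measured probe set of the 13 integrin and laminin genes that have several, with the probe set that stands for the gene in orange and the others in blue. Open circles are bounds, larger circles are brighter probe sets, and dotted lines mark 2-fold; Lama4 and Lama5 have probe sets well to both sides of 0, while those of Itgb5, Itgav and Lamb1 are all below it.

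**Figure D4:**
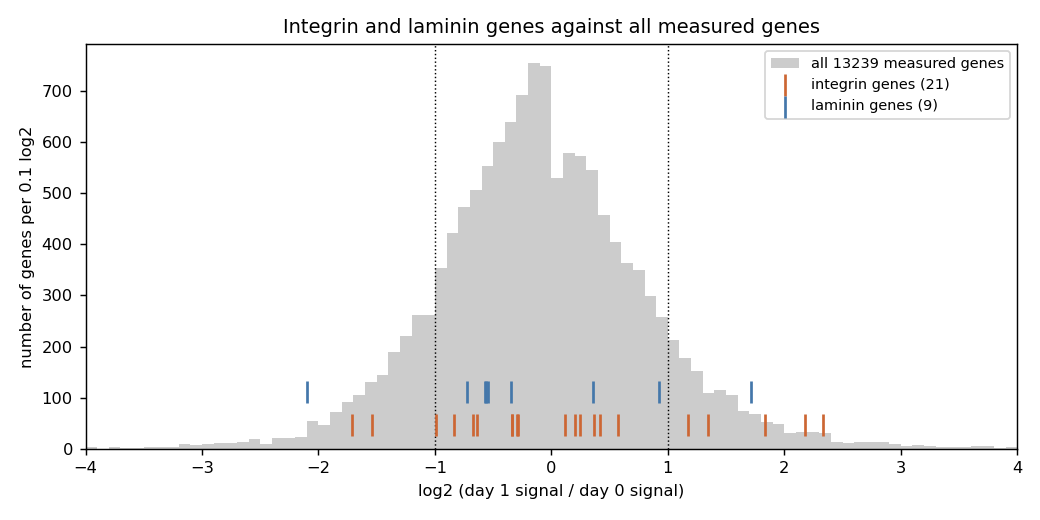
Number of genes per 0.1 log2 ratio of day 1 over day 0 for the 13239 measured genes (grey), with a tick for each of the 21 measured integrin genes (orange) and 9 laminin genes (blue). Genes beyond the ends of the axis are not drawn, and dotted lines mark 2-fold; 5 integrin ticks lie beyond the upper line and 2 beyond the lower, and 1 laminin tick beyond each.

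The 4 genes that share the prefix encode other proteins. Itgb1bp1, which binds the beta1 tail and restrains integrin activation, had 592.0 and 400.2 (-0.56, but 0.60 under hybridisation control scaling). Itgbl1, a secreted protein with integrin-like repeats, had 127.4 and 103.0 (-0.31, but 0.86 under that scaling). Itgb1bp2, a muscle protein, and Itgb3bp, a centromere protein, were not measured. Itgb2l, counted among the integrin genes as a beta2-like paralogue, was not measured at any of its 3 probe sets.

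Among genes that connect integrins to actin inside the cell, Flna, Parva and the actinins Actn4 and Actn1 were at least 2-fold higher on day 1. Of the adhesion adaptors and kinases, 28 were measured of 33 listed. Of these, 10 were at least 2-fold higher and 1 lower (35.7% and 3.57%, against 10.4% and 13.3% of all measured genes), with a median of 0.64 log2. Flna, an actin crosslinker that binds beta tails, had 534.4 and 2444.5 (4.57-fold). Parva, the actin-binding partner of integrin-linked kinase, had 144.6 and 619.6 (4.28-fold). Actn4 and Actn1, which bundle actin at adhesions, were 2.93-fold and 2.85-fold higher, though another Actn1 probe set had -0.073 log2. The talin gene Tln1, whose product switches integrins on, had 568.2 and 1404.3 (2.47-fold), with the lowest of its 3 measured probe sets at 0.91 log2. Ilk itself had 517.8 and 794.0 (0.62 log2), under 2-fold. The list median was 0.049 when the probe set with the smallest ratio was taken.

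Of the other basement membrane genes, Agrn and 2 of 6 collagen IV chain genes were at least 2-fold higher on day 1. Of 20 measured, 4 passed 2-fold upward and 2 downward (20% and 10%, against 10.4% and 13.3% of all measured genes), with a median of 0.26 log2. Agrn, a heparan sulfate proteoglycan that binds laminin, had 546.3 and 2443.4 (4.47-fold). Col4a5 had 315.7 and 1330.2 (4.21-fold) and Col4a1 had 1362.2 and 2991.2 (2.20-fold), both collagen IV chains. The other measured Col4a1 probe set was at 0.55 log2, under 2-fold. Cd151 also passed 2-fold upward (2.06-fold), but another of its probe sets was at -1.58 log2. The other collagen IV genes were under 2-fold, with log2 ratios of 0.45 for Col4a2, 0.25 for Col4a6, and bounds of -0.21 for Col4a3 and -0.35 for Col4a4. Plec, which ties the beta4 tail to keratin, had 1628.4 and 1022.6 (-0.67), with another probe set at 0.45. Nid2, which bridges laminin and collagen IV, had 174.8 and 76.2, at least 2.25-fold lower, and Dag1, a laminin receptor that is no integrin, had 1211.2 and 1602.5 (0.40) with a disagreeing probe set.

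Among 16 measured genes for other integrin ligands, 6 passed 2-fold upward and 1 downward (37.5% and 6.25%, against 10.4% and 13.3% of all measured genes), with a median of 0.78 log2. Ccn2, a matrix-associated signalling protein, had 126.6 and 1520.3 (3.59 log2), and the E-cadherin gene Cdh1, the ligand of the Itgae pair, had 641.7 and 4367.8 (6.81-fold). Ccn1 had 87.2 and 406.5 (4.66-fold), with the lowest of its 4 measured probe sets at 0.68 log2. Thbs1, another matrix protein, was at the floor on day 0 and at least 15.6-fold higher. Cdh1 is also 1 of the luminal markers counted above. Mfge8, a milk fat globule protein bound by alphaV integrins, was the 1 lower gene, with 50608.4 and 24213.5.

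**Figure D5:**
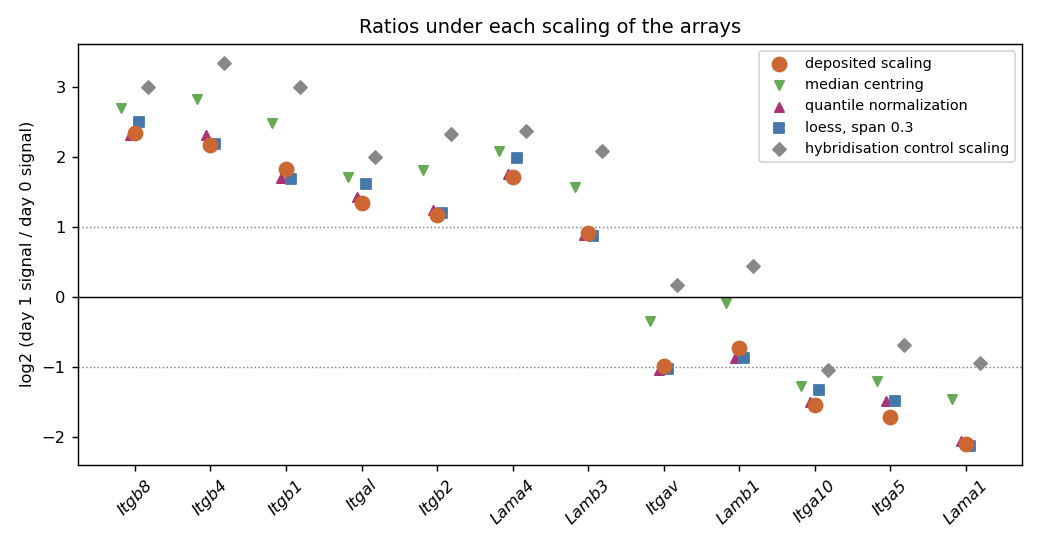
Log2 ratio of day 1 over day 0 of 12 genes named above under the deposited scaling (large circle) and 4 other scalings of the arrays (small symbols), with dotted lines at 2-fold. The 4 beta genes Itgb8, Itgb4, Itgb1 and Itgb2 stay above the upper line under each, which median centring and hybridisation control scaling could not alter. Itgav and Lamb1 cross 0 under hybridisation control scaling.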

How the data were processed

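The deposited values are MAS 5 signal intensity values, made by the authors with the Affymetrix Microarray Suite 5.0 algorithms, per the labels. What they scaled each array to was not stated in the sources used here; the means after trimming 2% at each end were equal.

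Of 45101 probe sets, 64 were controls. The platform annotation gave 34945 a single symbol, 932 several and 9160 none. Symbols were matched through gene identifiers to RefSeq on GRCm38.p6 (34741 matched), for names only. Those with several symbols went unused. Log2 ratios of day 1 over day 0 were taken after the floor, and a difference was counted at 2-fold. With 1 array per day there is no error estimate. Every member gene is accounted for, and each related list gives up to 4 genes with the largest ratios above the floor on both arrays, without those whose probe sets disagree by 0.5 log2 across 0. Other list genes (Tln1, Ilk, Npnt, Nid2, Dag1, Cd151, Thbs1, Mfge8) were named after their values were seen. The members and lists were chosen with earlier results of these data known. Alternatives were median centring, quantile normalization, loess (span 0.3), hybridisation control scaling, other floors, a pseudocount of 16 without a floor, other choices of probe set and other fold thresholds. The script was tested on simulated data. Python 3.11.15, numpy 2.4.6, pandas 2.3.3 and statsmodels 0.14.6 were used.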

Additional observations from a re-analysis of the deposited data

How the results depend on the processing

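No paired analysis was possible because each day has 1 array. Values were called changed when they moved by more than the 0.56 log2 SD between probe sets of a gene, when a count moved by over 1.5 times, or when the share of higher calls moved by over 10 percentage points; applying the alternatives to the related lists, to pairs and to all genes was decided after the data were seen. The cause of each change was not tested, except where a higher floor or another threshold alters which genes can count.

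Higher calls were 43.8% of all calls as deposited, and 84.6% after median centring, 95.5% under hybridisation control scaling, 31.6% with a floor at the 25th percentile and 58.4% at the 75th. The integrin median was 0.74 after median centring, 1.02 under hybridisation control scaling, -0.28 with the floor at the 25th percentile and -0.085 without suffixed probe sets. The laminin median was 0.11 and 0.62 under the first 2 of these. The medians of adhesion adaptors, basement membrane partners and other ligands were 1.36, 0.92 and 1.43 after median centring and 1.80, 1.47 and 1.86 under hybridisation control scaling; the adaptor median was 0.049 with the probe set of the smallest ratio.

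Integrin genes higher and lower numbered 11 and 1 under hybridisation control scaling (all genes 48.7% and 2.28%), 2 and 0 with the floor at the 75th percentile (10.9% and 7.72%), and 3 and 1 at 3-fold (3.85% and 4.33%). Lower integrin genes numbered 1 with the mean of probe sets or the smallest ratio (all genes 11.3% and 9.69%). They numbered 6 of 21 at 1.5-fold, where 27.2% of all genes were lower. Higher laminin genes numbered 3 after median centring or hybridisation control scaling (all genes 28.5% and 48.7%). They numbered 0 with the floor at the 75th percentile, the mean of probe sets or the smallest ratio (10.9%, 7.9% and 6.39%). At 1.5-fold they numbered 2 (20.4%). Lower laminin genes numbered 0 under hybridisation control scaling (all genes 2.28%). They numbered 2 with the mean of probe sets, without suffixed probe sets and at 1.5-fold (11.3%, 13.6% and 27.2%). Lama4 was at -0.95 with the smallest ratio. Of 301 single-gene values under alternatives, 228 moved by less than the SD, 72 by more, and 1 reversed a 2-fold difference. Signals near the floor limit Itgb8, Itgal, Itga5, Itga10 and Lama4 to bounds.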
